A study of Mus musculus with 4 samples.

Results

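The genes described here are 44 components of the bone morphogenetic protein (BMP) and transforming growth factor beta (TGF-beta) pathways, picked by symbol from the 23874 genes of the deposited count table. All 44 were found. They comprise 9 ligands, 10 receptors and co-receptors, 4 latent TGF-beta binding proteins, 4 secreted antagonists, 6 signal-carrying SMAD proteins, 7 intracellular inhibitors and the 4 Id genes, which are transcriptional targets. The libraries came from engineered neural tissue of the mouse, in which neurospheres (floating aggregates of neural stem cells and their progeny) were set in Matrigel, a basement membrane extract, under N2 and B27 medium with 20 ng/ml basic fibroblast growth factor. The EF group had been stimulated on 3 days, 30 min per day, at 150 mV/mm, and was then cultured for 7 more days. The noEF group was unstimulated and is labelled with the same day. Each group had 2 libraries, although the labels state 3 replicates per group, and the labels name no mouse strain or age and do not say that replicates were separate cultures. The p-values therefore measure only the spread between these libraries, which may be technical. The series design also names suspensions of neural stem cells as a control, but both groups are labelled as engineered tissue.

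BMP and TGF-beta ligands bind pairs of type I and type II receptor kinases on the cell surface. The receptors phosphorylate receptor SMADs (SMAD1, SMAD5 and SMAD9 after BMPs, SMAD2 and SMAD3 after TGF-beta and activins), which enter the nucleus with SMAD4 and regulate transcription. In neural stem cells BMP signalling is known to favour astrocyte formation and cell cycle exit, partly through the Id proteins, which bind basic helix-loop-helix factors and keep them from DNA.

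Total counts were 33748880 to 34554537 per library, so 1 count was worth 0.0280 to 0.0307 CPM (counts relative to the library size, scaled by TMM). Neural stem cell and radial glia markers summed to 8152 and 8206 CPM in EF and 9468 and 9249 CPM in noEF over 10 genes. Levels within the list were uneven. In EF 1 Slc1a3, Fabp7 and Vim had 2991, 2281 and 2176 CPM, while Pax6 had 27.4 CPM and Hes5 4.79 CPM. In EF 3 of these 10 were called lower and 0 higher. Of 12 astrocyte genes 7 were lower in EF and 0 higher (summed 12317 and 12903 CPM in EF, 18371 and 17648 CPM in noEF). Apoe alone had 6505 and 6837 CPM in EF and 10780 and 9838 CPM in noEF. The 5 not called, S100b, Aldh1l1, Slc1a2, Glul and Fgfr3, had log2 fold changes (EF minus noEF) of -0.02, 0.03, -0.08, 0.06 and -0.05. All 10 cell cycle genes were higher (summed 1300 and 1221 CPM in EF, 782 and 773 CPM in noEF). The 10 oligodendrocyte lineage genes summed to 2458.5 and 2805 CPM in EF and 2580 and 2430 CPM in noEF. Of the 9 tested, 2 (Pdgfra and Gpr17) were called lower in EF and 0 higher. Olig1 and Olig2 had 2004 and 296 CPM in EF 1, while Sox10 had 6.02 CPM and Enpp6 1.99 CPM. The 10 neuron genes summed to 737 and 714 CPM in EF and 622 and 688 CPM in noEF, with 0 called. Their levels were uneven too, with Map2 and Gap43 at 528.5 and 136 CPM in EF 1. Rbfox3 and Nefl had 0.672 and 0.532 CPM in that library, and Stmn2 had 0 counts in all libraries. The part of these shifts in the results below was not tested, and in bulk RNA fewer cells of a type and less RNA per cell cannot be told apart. Markers of cells that supply much TGF-beta signalling in tissue were scarce. The 10 fibroblast and mural cell genes summed to 11.4 and 7.53 CPM in EF and 5.59 and 5.14 CPM in noEF, with 1 called higher (the smooth muscle actin gene Acta2) and Lum and Kcnj8 at 0 in all libraries. The 8 endothelial genes summed to at most 2.86 CPM with Cdh5 at 0, and the 10 microglial genes to at most 6.91 CPM with 7 at 0, and none of those lists had a called gene.

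Each gene was tested with edgeR's quasi-likelihood test across all 14263 genes with enough counts, and a gene was called at a Benjamini-Hochberg adjusted p under 0.05. Of the 44 pathway genes 39 had enough counts, and 5 of these were called. Smad5, a receptor SMAD of the BMP branch, was higher in EF. Id4 and Id2, the co-repressor gene Tgif1 and the ligand gene Tgfb3 were lower. Across all tested genes 8.82% were called, 3.83% higher and 4.99% lower, so 5 of 39 (12.8%) is near that share and is not a result about the pathway as a whole. The libraries of the groups did not overlap for 20 of the 39 genes (51.3%), 12 higher and 8 lower in EF, against 54.4% of all tested genes (27.6% higher, 26.8% lower). An unadjusted p under 0.05 was found for 10 of the 39 genes and for 23.8% of all tested genes. The median log2 fold change (EF minus noEF) was 0.11 over the 39 genes and 0.01 over all tested genes.

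**Figure D1:**
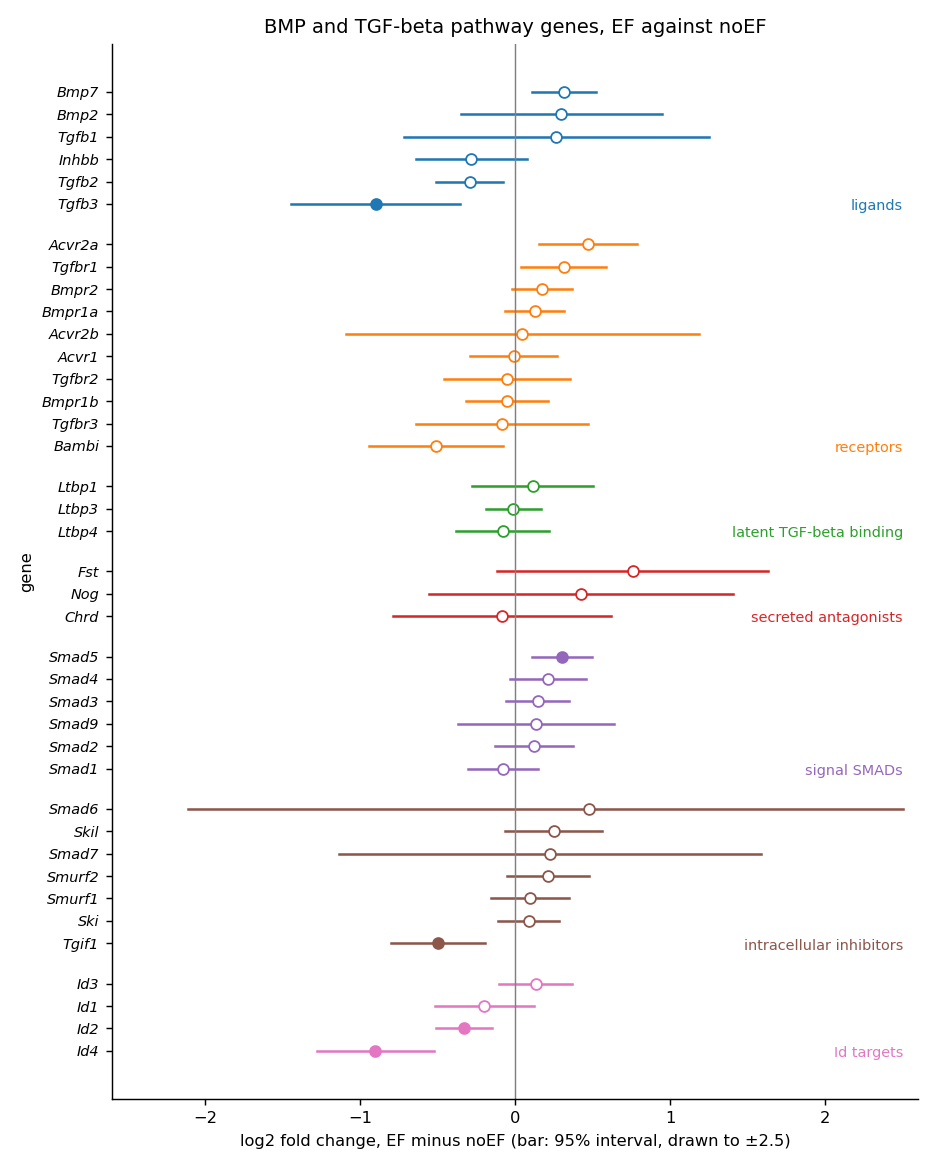
Log2 fold change of each tested pathway gene (x axis, EF minus noEF) by role, with its 95% interval from edgeR as a bar and filled points for called genes. The 5 filled points are Smad5 on the right of 0 and Tgfb3, Tgif1, Id2 and Id4 on the left, and the interval of Smad6 is the widest.

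Sequence upstream of the RefSeq starts of Id4 and Id2, the Id genes that were called, is shown first. RefSeq on build GRCm38.p6 gave promoter sequence for 32 of the 44 genes. Below are the bases upstream of the RefSeq start that no GENCODE M21 exon of the gene covers, 5′ to 3′ on the gene's strand, with the letters GGCGCC, a core reported in BMP-responsive SMAD elements, in capitals. For Id4 this is chr13:48260866-48261115 on the plus strand and for Id2 chr12:25096254-25096342 on the minus strand. The Id2 stretch lies inside the GENCODE gene, between exons, and 161 of the 250 bases upstream of its RefSeq start are exonic in GENCODE and not printed.
Id4: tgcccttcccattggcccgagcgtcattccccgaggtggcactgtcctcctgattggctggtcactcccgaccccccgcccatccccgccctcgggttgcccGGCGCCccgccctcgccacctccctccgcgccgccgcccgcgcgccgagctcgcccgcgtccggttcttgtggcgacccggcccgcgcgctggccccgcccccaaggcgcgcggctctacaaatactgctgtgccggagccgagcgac
Id2: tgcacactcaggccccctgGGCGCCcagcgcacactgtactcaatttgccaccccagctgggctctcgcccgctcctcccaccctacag
GGCGCC reads the same on both strands. In the whole 250 bases upstream of the RefSeq start it was found 1 time for Id4, 1 time for Id2 and 0 times for Id3. The SMAD box CAGAC, searched on both strands (GTCTG on the other), was found 0 times for Id4, 0 times for Id2 and 2 times for Id3. GENCODE M21 exons of the gene cover all 250 bases of the Id3 window, 161 of the Id2 window and 0 of the Id4 window. The Id3 window is thus exonic throughout, and the Id2 window also lies inside its GENCODE gene. Only the Id4 window lies upstream of its gene in GENCODE. The matches in these windows therefore cannot be set against one another as a promoter difference. GGCGCC occurred in 9.6% of all 32851 promoter windows of that length in the table and in 13 of the 44 windows (29.5%) of the 32 pathway genes (some have several starts). CAGAC occurred in 42.2% of all windows and in 20 of the 44 (45.5%). GGCGCC is all G and C, the windows were not matched for GC content, and starts of the same gene were counted separately. No enrichment is read from these shares. G and C made up 75.6% of the Id4 window and 62.8% of the Id2 window. A match is a description of the letters and not a bound site.

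The Id genes did not move together. Id4, which encodes an Id protein expressed in neural stem cells and astrocyte precursors (ENSMUSG00000021379, GRCm38 chromosome 13, 48261228 to 48266026), had 7.98 and 8.88 CPM in the EF libraries and 15.5 and 16.0 CPM in the noEF libraries. Both EF libraries lay well below both noEF libraries. The log2 fold change was -0.90 (SE 0.18, edgeR adjusted p = 0.00582), or 1.87-fold lower in EF. Id2, whose product restrains neuronal and oligodendrocyte differentiation (ENSMUSG00000020644, chromosome 12, 25093799 to 25097140), had 108 and 113 CPM in EF and 137 and 141 CPM in noEF. Its groups did not overlap either, and its log2 fold change was -0.33 (SE 0.09, edgeR adjusted p = 0.0264). Id4 passed the test under each of 13 other settings, including each library left out in turn, with log2 fold changes from -0.98 to -0.81. Id2 passed in 9 of them and missed the threshold without EF 1, without EF 2, with library totals and with the replicate number as a block (edgeR adjusted p = 0.198, 0.0530, 0.0815 and 0.0660).

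Id1 and Id3, the Id genes most often used as readouts of BMP signalling, were not called. Id1 had 45.3 and 55.2 CPM in EF and 65.5 and 49.8 CPM in noEF, and the groups overlapped because noEF 2 lay between the EF libraries. Its log2 fold change was -0.20 (SE 0.14, 95% interval -0.52 to 0.12, edgeR adjusted p = 0.456). The sign of Id1 turned to 0.12 when the trend of each library on gene length and GC content was removed, and without noEF 2 it was called lower (-0.39, edgeR adjusted p = 0.0367). Id3 had 90.1 and 114 CPM in EF and 95.7 and 90.6 CPM in noEF, with EF 1 at the level of noEF and EF 2 above it. Its log2 fold change was 0.13 (SE 0.11, 95% interval -0.11 to 0.37, edgeR adjusted p = 0.520). Once the trend on length and GC was removed, Id3 was called higher at 0.33 (edgeR adjusted p = 0.0219). Id1 and Id3 have short transcripts (1160 and 1791 bases of merged exons, against a median of 5562 over the tested pathway genes). Their GC content (55.0% and 56.2%) is above that of Id2 and Id4 (45.9% and 42.6%). The values of Id1 and Id3 moved with that correction, while Id2 (2438 bases) and Id4 (3849 bases) kept their calls. The correction took length and GC together, and whether length or GC moved Id1 and Id3 was not tested. Per kb of merged exons, Id3, Id2 and Id1 averaged 57.0, 45.3 and 43.3 CPM per kb in EF and 52.0, 57.0 and 49.7 CPM per kb in noEF. The level of Id4 was 2.19 CPM per kb in EF and 4.09 CPM per kb in noEF, so Id4 contributed little of the Id transcripts. The 4 Id genes summed to 251 and 291 CPM in EF and 314 and 297 CPM in noEF.

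**Figure D2:**
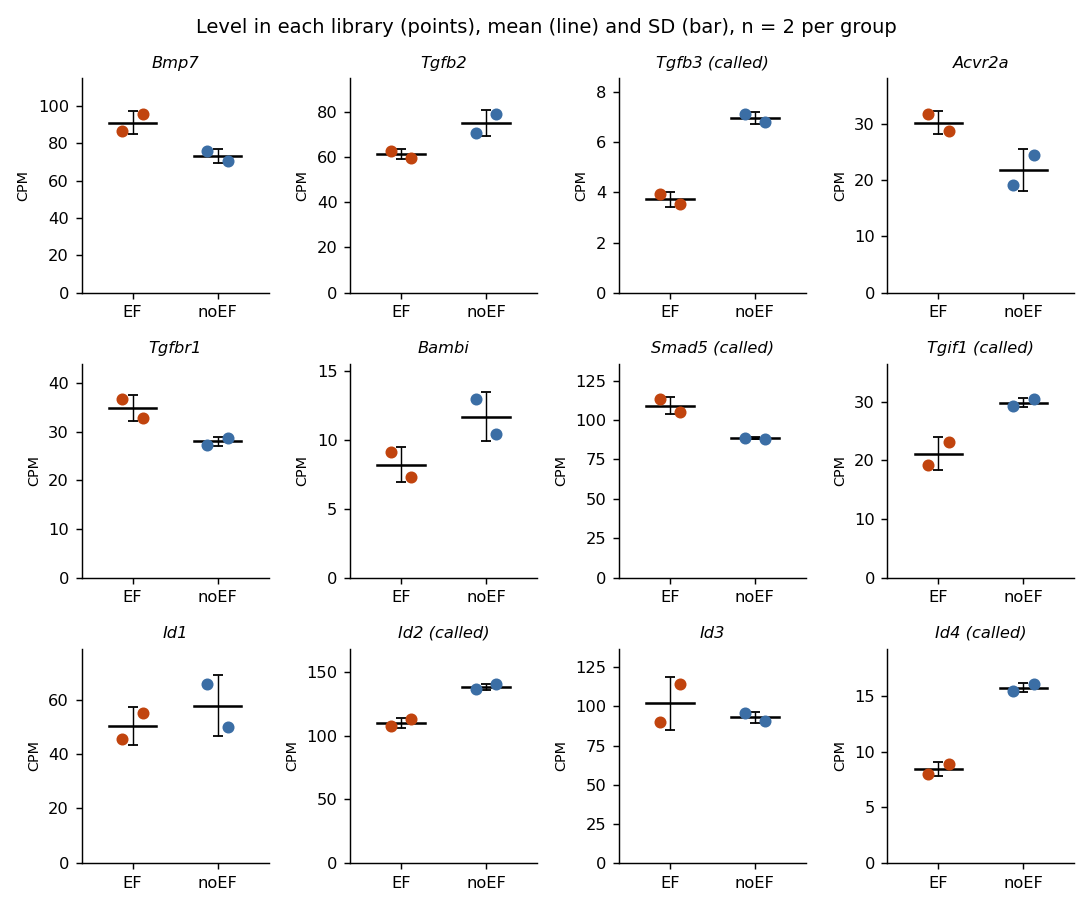
CPM (y axis, from 0) of 12 pathway genes in each EF and noEF library, with the mean as a line and the SD as a bar (n = 2 per group). Id4, Id2, Tgfb3, Tgif1 and Smad5, the called genes, have no overlap between groups, while the libraries of Id1 and Id3 overlap.

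Among the ligands, Tgfb3 was the single called gene of 6 tested. TGF-beta 3 signals through the same TGF-beta receptors as its paralogs. Tgfb3 (ENSMUSG00000021253, chromosome 12, 86056745 to 86079041) had 3.95 and 3.52 CPM in EF and 7.13 and 6.81 CPM in noEF. Both EF values were near one another and below both noEF values, and the log2 fold change was -0.90 (SE 0.26, edgeR adjusted p = 0.0404), or 1.86-fold lower in EF. It kept its call in 7 of 13 other settings and in 0 of the 4 with a library left out (edgeR adjusted p from 0.0551 to 0.138, log2 fold change from -0.98 to -0.82). The more abundant Tgfb2, known in radial glia and astrocytes, had 62.7 and 59.6 CPM in EF and 70.8 and 79.0 CPM in noEF, without overlap. Its log2 fold change of -0.29 (SE 0.10) did not pass (edgeR adjusted p = 0.0863), but it passed with the length and GC trend removed (-0.38, edgeR adjusted p = 0.0110). Tgfb1, the main TGF-beta of immune and vascular cells, was at 2.35 and 1.63 CPM in EF and 1.41 and 1.90 CPM in noEF, too low for a narrow estimate (95% interval -0.72 to 1.25 on the log2 scale).

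Bmp7, a BMP made by meninges and neural progenitors, was the most abundant ligand transcript per length, at 22.7 CPM per kb in EF and 18.2 CPM per kb in noEF. It had 86.7 and 95.7 CPM in EF and 75.9 and 70.7 CPM in noEF. Each EF library was above each noEF library, but the log2 fold change of 0.32 (SE 0.10) missed the threshold (edgeR adjusted p = 0.0554). It was past it in 6 of 13 other settings, among them library totals (0.40, edgeR adjusted p = 0.0132) and the removed length and GC trend (0.33, edgeR adjusted p = 0.0184). Bmp2, a close relative of Bmp4, had 5.49 and 4.33 CPM in EF and 3.13 and 4.85 CPM in noEF, with overlap (log2 fold change 0.30, SE 0.30). Inhbb, which encodes the subunit of activin B, had a log2 fold change of -0.28 (SE 0.17) and overlapping groups. Neither passed (edgeR adjusted p = 0.612 for Bmp2 and 0.333 for Inhbb).

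The remaining ligands had few counts or none. Bmp4, a strong inducer of astrocytes from neural stem cells, had 0 and 0 counts in EF and 0 and 2 counts in noEF. Bmp6 had 0 and 3 counts in EF and 0 and 2 counts in noEF. Inhba, which encodes the activin A subunit, had 3 and 0 counts in EF and 14 and 0 counts in noEF, so 1 library of each group held all of its counts. A count of 0 allows up to 3 counts, or 0.0840 to 0.0921 CPM depending on the library, counting error only, so a low level cannot be told from none where a library had 0 counts.

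**Figure D3:**
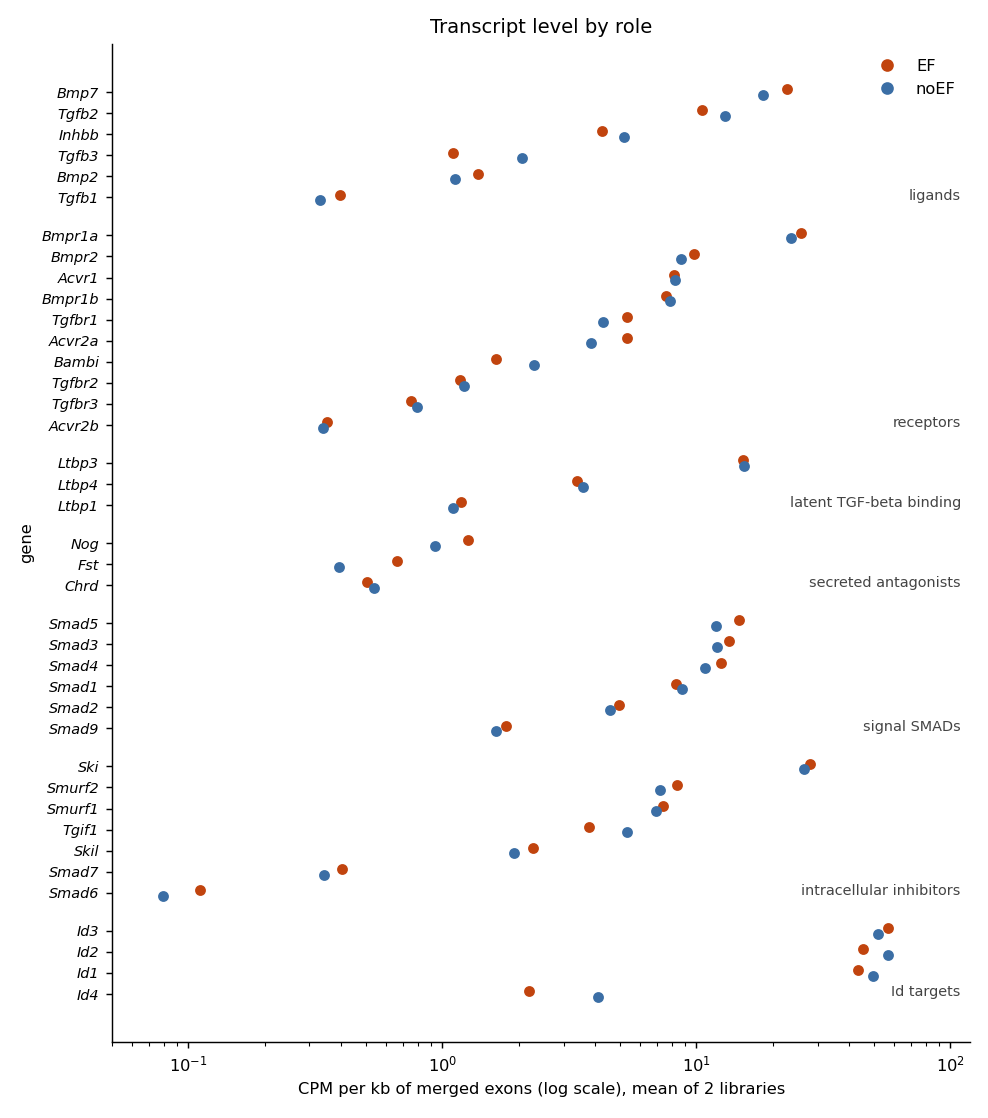
Mean level of each pathway gene per kb of merged exons (x axis, CPM per kb, log scale, 2 libraries per group) in EF and noEF, ordered by role. Genes under 0.05 CPM per kb are not drawn. Bmp7 leads the ligands, Bmpr1a the receptors and Ski the intracellular inhibitors, the secreted antagonists lie near or below 1, and the EF and noEF points are farthest apart for Tgfb3, Id4, Fst, Smad6 and Tgif1 among others.

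None of the 10 receptor genes was called, and 3 had an unadjusted p under 0.05 by edgeR's test. DESeq2 and limma-voom called 0 of them as well. Bmpr1a, the type I receptor for BMP2 and BMP4, was the most abundant per length, at 25.8 CPM per kb in EF and 23.7 CPM per kb in noEF. Its libraries held 165 and 163 CPM in EF and 140 and 160 CPM in noEF, without overlap but with the second noEF library close to EF, and its log2 fold change was 0.13 (95% interval -0.065 to 0.32). Bmpr2, the type II BMP receptor, was at 0.17 (95% interval -0.02 to 0.36) on the log2 scale. The other type I receptors Acvr1 and Bmpr1b were at -0.01 and -0.05, each with overlapping groups. With the length and GC trend removed Bmpr1a and Bmpr2 were at -0.01 and -0.004.

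Acvr2a, a type II receptor shared by activins and BMPs, had 31.7 and 28.7 CPM in EF and 19.2 and 24.4 CPM in noEF. EF was higher in each library, and the log2 fold change of 0.47 (SE 0.15) did not pass (edgeR adjusted p = 0.0631). It passed without noEF 2 (0.65, edgeR adjusted p = 0.00737), with library totals (0.55, edgeR adjusted p = 0.0239) and with no low-count filter (edgeR adjusted p = 0.0189). Exons of Acvr2a overlap Orc4, a replication origin gene on the opposite strand, over 446 bases, and reads there cannot be told apart unless counting used strand. Acvr2b, its paralog, was low at 1.23 and 1.52 CPM in EF and 1.444 and 1.22 CPM in noEF.

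Of the TGF-beta receptors, Tgfbr1, the type I kinase, had 36.6 and 32.9 CPM in EF and 27.3 and 28.6 CPM in noEF. These groups did not overlap, and the log2 fold change was 0.31 (SE 0.13, edgeR adjusted p = 0.152). Tgfbr2, the type II kinase it pairs with, was at -0.05 (95% interval -0.46 to 0.35) and the co-receptor Tgfbr3 (betaglycan) at -0.09 (95% interval -0.64 to 0.47), both low. Bambi, a decoy receptor without a kinase domain that is induced by BMP and TGF-beta, had 9.10 and 7.33 CPM in EF and 12.96 and 10.4 CPM in noEF. Its EF libraries were the lower ones, but its log2 fold change of -0.51 (SE 0.20) did not pass (edgeR adjusted p = 0.138).

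Latent TGF-beta binding proteins hold newly made TGF-beta in the matrix. Ltbp3 led them at 138 and 138 CPM in EF and 142 and 137 CPM in noEF. The 4 libraries were within a few CPM of one another, and its log2 fold change of -0.01 had a 95% interval of -0.19 to 0.17. Ltbp1 and Ltbp4 were at 0.11 (95% interval -0.28 to 0.50) and -0.08 (95% interval -0.38 to 0.22), with overlapping groups. Ltbp2 had 0 counts in all libraries.

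The secreted antagonists were low. Noggin, chordin and follistatin bind BMPs or activins outside the cell, and noggin is known to keep neural stem cells from becoming astrocytes. Nog, the highest of them per length, had 2.32 and 1.95 CPM in EF and 1.97 and 1.22 CPM in noEF, so the groups overlapped by a narrow margin (log2 fold change 0.42, SE 0.46, edgeR adjusted p = 0.635). Fst had 2.49 and 3.61 CPM in EF and 2.18 and 1.43 CPM in noEF. This was the largest positive estimate among the tested pathway genes at 0.76 (SE 0.41), with a 95% interval from -0.12 to 1.63, and it did not pass (edgeR adjusted p = 0.285). Chrd was at -0.08 (95% interval -0.79 to 0.62), and its exons overlap Thpo on the opposite strand. Grem1 had 0 counts in all libraries.

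Of the 6 signal-carrying SMADs, Smad5 was called and the other 5 were not. Smad5 (ENSMUSG00000021540, chromosome 13, 56703010 to 56742377) had 113 and 105 CPM in EF and 88.9 and 88.0 CPM in noEF. Both EF libraries were above both noEF libraries, and the log2 fold change was 0.30 (SE 0.09, edgeR adjusted p = 0.0489), or 1.23-fold. The call was marginal. It was kept in 4 of 13 other settings and in 0 of the 4 with a library left out (edgeR adjusted p from 0.0728 to 0.342), and with the length and GC trend removed the log2 fold change was 0.18 (edgeR adjusted p = 0.176). Smad1, the partner of SMAD5 in the BMP branch, had 49.7 and 54.7 CPM in EF and 54.7 and 55.6 CPM in noEF, a log2 fold change of -0.08 (95% interval -0.31 to 0.15). Smad9, the least abundant receptor SMAD, had 11.9 and 7.22 CPM in EF and 8.54 and 8.92 CPM in noEF, with EF 1 above and EF 2 below both noEF libraries. The TGF-beta branch SMADs Smad3 and Smad2 and the shared Smad4 had log2 fold changes of 0.15, 0.12 and 0.21. Each had EF libraries above noEF libraries without passing the test (edgeR adjusted p = 0.386, 0.593 and 0.291).

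Among the 7 intracellular inhibitors Tgif1 was called. It encodes a homeodomain co-repressor that binds SMAD2 and SMAD3 and also represses retinoid response. Tgif1 (ENSMUSG00000047407, chromosome 17, 70844205 to 70853546) had 19.2 and 23.2 CPM in EF and 29.3 and 30.4 CPM in noEF. EF was lower in both libraries, with EF 1 lowest, and the log2 fold change was -0.50 (SE 0.14, edgeR adjusted p = 0.0422), or 1.41-fold lower. It passed in 8 of 13 other settings. Without EF 1, without noEF 1 and without noEF 2 it did not pass (edgeR adjusted p = 0.353, 0.0663 and 0.0713), nor with library totals or the replicate block (edgeR adjusted p = 0.0734 and 0.0600).

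Ski, a co-repressor of SMAD complexes, was the most abundant inhibitor per length, at 28.1 CPM per kb in EF and 26.5 CPM per kb in noEF. Its libraries had 158 and 154 CPM in EF and 137 and 158 CPM in noEF, with overlap (log2 fold change 0.09, 95% interval -0.11 to 0.28). Its relative Skil was at 0.25, and the ubiquitin ligases Smurf2 and Smurf1, which mark SMADs and receptors for degradation, were at 0.21 and 0.10. None of the 3 passed (edgeR adjusted p = 0.336, 0.319 and 0.680). The inhibitory SMADs, which BMP and TGF-beta signalling normally induce as feedback, differed most between replicates. Smad7 had 2.94 and 0.688 CPM in EF and 1.23 and 1.87 CPM in noEF, so the EF libraries lay on either side of noEF. Smad6 had 0.0560 and 0.659 CPM in EF (2 and 23 counts) and 0.123 and 0.386 CPM in noEF (4 and 13 counts), and its 95% interval of the log2 fold change ran from -2.11 to 3.06. For neither could a direction be given at this depth and spread.

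**Figure D4:**
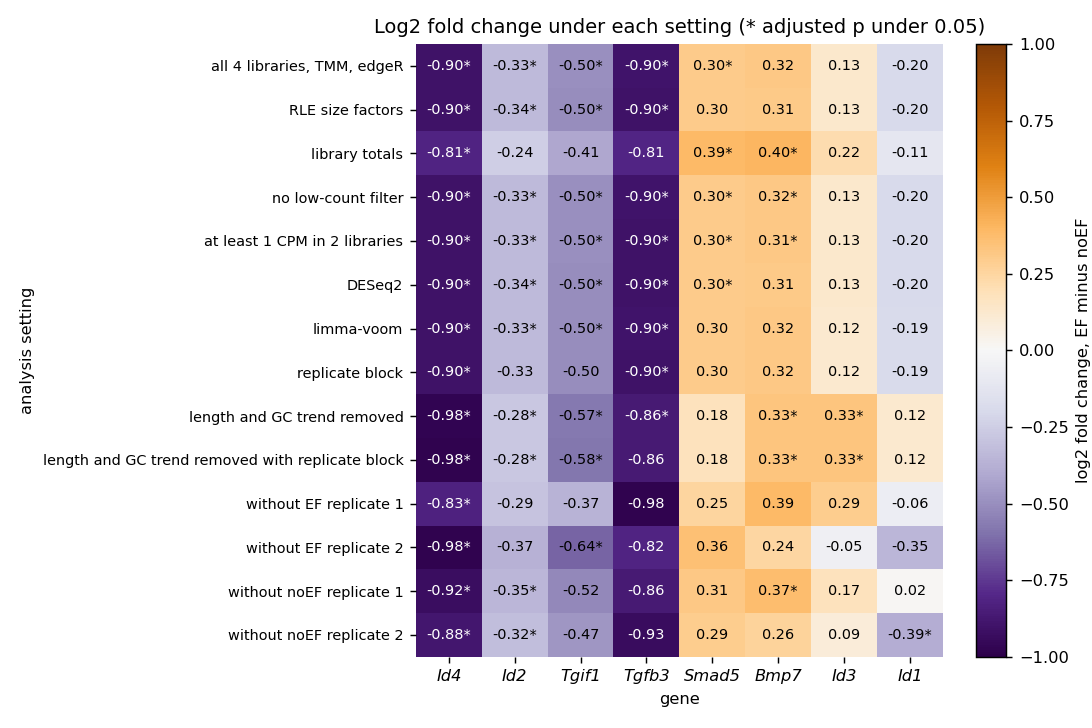
Log2 fold change (EF minus noEF, number and colour) of 8 pathway genes (x axis) under each analysis setting (y axis), with an asterisk for an adjusted p under 0.05. Id4 carries an asterisk in every line, Id2, Tgif1, Tgfb3 and Smad5 in part, and Id1 and Id3 change sign between lines.

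A wider list of 97 other genes of these pathways was chosen alongside. Of these 65 were tested, 7 were higher in EF, 5 were lower and 53 were not called, and the median log2 fold change was 0.10. The called share was 18.5%, against 8.82% of all tested genes (3.83% higher, 4.99% lower), and since the list was chosen with earlier results known, nothing is read from that share or from the smaller counts that follow. Of the 10 tested genes for TGF-beta storage and activation 3 were higher and 0 lower. Thbs1, whose product thrombospondin 1 can release TGF-beta from its latent form, had 19.7 and 14.8 CPM in EF and 7.86 and 8.15 CPM in noEF (log2 fold change 1.11, SE 0.19, edgeR adjusted p = 0.00229), and it passed in all 13 other settings. Itgav, a subunit of the integrins that bind latent TGF-beta, had 294 and 288 CPM in EF and 220 and 241 CPM in noEF (0.33, SE 0.08, edgeR adjusted p = 0.0235). The fibrillin gene Fbn2 was at 0.53 (SE 0.16) and just inside the threshold (edgeR adjusted p = 0.04995). Itgav passed in 7 and Fbn2 in 5 of 13 other settings, and neither with the length and GC trend removed (edgeR adjusted p = 0.0583 and 0.0691). With a library left out, both passed without noEF 2 and missed the threshold without EF 1, EF 2 or noEF 1 (edgeR adjusted p up to 0.141 for Itgav and 0.215 for Fbn2).

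Of 13 tested extracellular regulators, Crim1, a transmembrane protein that binds BMPs, was higher, also in all 13 other settings. It had 75.1 and 77.8 CPM in EF and 51.4 and 58.2 CPM in noEF (0.48, SE 0.10, edgeR adjusted p = 0.00974). Dand5, a nodal and BMP antagonist of the DAN family, was lower with 3.33 and 3.18 CPM in EF and 7.03 and 6.96 CPM in noEF (-1.10, SE 0.26, edgeR adjusted p = 0.0170), and it missed the threshold without EF 1 and with the length and GC trend removed and the replicate block (edgeR adjusted p = 0.0505 and 0.0625). Of 7 other ligands Gdf15, a stress-induced distant member of the family, was lower (-0.60, SE 0.14, edgeR adjusted p = 0.0149). It did not pass without EF 1 (-0.43, edgeR adjusted p = 0.170) or with the trend removed and the replicate block (-0.40, edgeR adjusted p = 0.0567). Of 17 other intracellular regulators Zeb1, a zinc finger repressor, was higher (0.33, SE 0.08, edgeR adjusted p = 0.0260), but not with the length and GC trend removed (0.19, edgeR adjusted p = 0.0751), nor without EF 1, EF 2 or noEF 1 (edgeR adjusted p = 0.159, 0.0669 and 0.157). With the replicate block Zeb1 did not pass either, without and with the trend removed (edgeR adjusted p = 0.0690 and 0.150).

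Genes that BMP or TGF-beta can induce moved both ways. Of 13 tested, 2 were higher in EF and 3 were lower. Tnc, the gene of the matrix protein tenascin C, had 102 and 95.3 CPM in EF and 40.3 and 41.3 CPM in noEF (1.27, SE 0.10, edgeR adjusted p = 3.47e-06). Ctgf, a classical TGF-beta and YAP target, had 8.07 and 6.04 CPM in EF and 2.549 and 4.04 CPM in noEF (1.10, SE 0.30, edgeR adjusted p = 0.0316), and it did not pass without EF 1 or without noEF 1 (edgeR adjusted p = 0.230 and 0.152). Cdkn2b, a cyclin-dependent kinase inhibitor induced by TGF-beta, had 31.7 and 37.0 CPM in EF and 58.1 and 50.0 CPM in noEF (-0.65, SE 0.13, edgeR adjusted p = 0.00508). It passed in all 13 other settings. Hey1, a repressor downstream of Notch and BMP, and Junb, an immediate early gene, were lower at -0.42 and -0.38 (edgeR adjusted p = 0.0327 and 0.0163). Hey1 missed the threshold without EF 1, EF 2 or noEF 2 (edgeR adjusted p = 0.177, 0.0822 and 0.146), and Junb without EF 1 or noEF 1 (edgeR adjusted p = 0.113 and 0.126). Hey1 also missed it with library totals and with the replicate block (edgeR adjusted p = 0.0725 and 0.0561), and Junb with the trend removed and the block (-0.22, edgeR adjusted p = 0.0962). Exons of Junb and Crim1 overlap Prdx2 and Fez2 on the opposite strand, so part of their counts may be shared. These genes also respond to other signals, and their differences do not show which pathway acted.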

How the data were processed

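The authors deposited 1 table of raw whole-number counts per gene, not scaled, with 4 libraries whose column names match the library names that the labels give for EF and noEF. Per the submitters' processing notes, HISAT2 2.0.4, StringTie 2.2.1, DESeq2 1.44.0 and build GRCm38 were used. How reads were counted, with which annotation and whether by strand, is not given in the sources used here. Per the labels' protocols, polyadenylated RNA was fragmented and copied from random hexamers.

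Counts were tested with edgeR 4.0.16 in R 4.3.3 (quasi-likelihood F test, robust, TMM scaling, filterByExpr with a minimum count of 10 and a minimum total of 15) without a block, adjusted by Benjamini-Hochberg over all 14263 genes. Standard errors were derived from the F statistic, and 95% intervals from them with the fit's degrees of freedom. Intervals and floors cover these libraries and counting error only, since PCR copies and mates are not independent. Levels per kb use merged exon lengths from GENCODE M21 (99.9% of 22036 Ensembl identifiers matched). The length and GC trend was a smooth of each library's log2 CPM (mgcv 1.9.3) that used 94.2% of tested genes. Its adjusted R-squared (share of variance explained) was 0.063 for EF 1, 0.073 for noEF 1, 0.006 for EF 2 and 0.002 for noEF 2. Replicates were not copies (chi-square 18.7 times its degrees of freedom in EF, 19.8 in noEF). The pathway genes and lists were chosen with earlier results of these data known. Values per library are given for genes called, genes with an unadjusted p under 0.05 and the most abundant gene per length of each role, and some further genes were added after their values were seen. Other pathway genes are named where called.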

Additional observations from a re-analysis of the deposited data

How the results depend on the processing

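The 13 other settings were DESeq2 1.42.0, limma-voom (limma 3.58.1), RLE size factors, library totals, 2 other count filters, the replicate block, the length and GC trend removed without and with that block, and each library left out in turn, where the lone library of a group is assumed to vary like the others. Called genes over the whole table numbered 546 higher and 712 lower, but 1138 higher with library totals (69.3% of calls against 43.4%) and 915 higher and 1203 lower with no low-count filter. Leaving out a library gave 217 to 790 higher and 337 to 1065 lower genes. The count of pathway genes higher in EF, 1 in the analysis of all libraries, was 0 with RLE size factors, limma-voom and the replicate block, 2 with at least 1 CPM in 2 libraries and with the length and GC trend removed (also 2 with the block), and 3 with library totals or no filter. It was 0 to 1 with a library left out. The count lower in EF, 4 in that analysis, was 1 with library totals and 2 with the replicate block. That count was 5 with no low-count filter and 5 with the length and GC trend removed (4 with the block added). Of the other pathway genes 4 were higher with the trend removed, 4 with the replicate block and 3 to 11 with a library left out (7 in all libraries), and 2 were lower with the trend removed and the block and 2 to 5 with a library left out (5 in all libraries). Without EF 1 the other pathway genes gave 3 higher and 2 lower.

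Signs turned for pathway genes that were not called. With library totals the log2 fold changes of Bmpr1b, Acvr1, Tgfbr2, Tgfbr3, Ltbp3, Ltbp4, Chrd and Smad1 were 0.033, 0.076, 0.034, 0.00099, 0.076, 0.0053, 0.0013 and 0.0072. With the trend removed Bmpr1a, Bmpr2, Smad2 and Id1 were at -0.0065, -0.0039, -0.0029 and 0.12, and with the block added at -0.0056, -0.0071, -0.0026 and 0.12, with Smad7 at -0.037. Smad6 and Smad7 were at -0.14 and -0.083 by limma-voom, and Smad7 at -0.046 with the replicate block. Without 1 library in turn, the log2 fold changes ran from -0.022 to 0.50 for Tgfb1, -0.010 to 0.23 for Ltbp1, -0.27 to 0.45 for Smad9, -1.17 to 0.92 for Smad7, -0.0054 to 0.19 for Smurf1, -0.20 to 0.081 for Bmpr1b, -0.16 to 0.15 for Acvr1, -0.11 to 0.19 for Acvr2b, -0.15 to 0.041 for Tgfbr2, -2.12 to 1.51 for Smad6, -0.048 to 0.29 for Id3, -0.036 to 0.013 for Ltbp3, -0.010 to 0.19 for Ski, -0.39 to 0.015 for Id1 and -0.25 to 0.10 for Chrd. The causes were not tested.

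The replicate numbers were not taken to pair the libraries: deviations of EF 1 and noEF 1 from their group means correlated at -0.09 over the tested genes, and with the block 410 genes were higher and 568 lower, against 546 and 712 without it. Depth limited the ligands and inhibitors below about 1 CPM, and 2 libraries per group limited every interval.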
